A study of Rattus norvegicus with 12 samples.

Results

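The nuclear genes of the mitochondrial respiratory chain and ATP synthase were examined in rats given trichloroethylene (TCE), a chlorinated solvent, with arrays from liver and from renal cortex. Members were taken by symbol, as the genes whose name starts with Nduf, Uqcr, Cox4i, Cox5, Cox6, Cox7, Cox8 or Atp5, together with Sdha, Sdhb, Sdhc, Sdhd and Cyc1. Each gene was represented by the probe set that carries its symbol alone and has the highest mean over all arrays. This gave 87 of the 14217 genes named by a single symbol: 34 in complex I, 6 complex I assembly factors (symbols starting with Ndufaf), 4 in complex II, 8 in complex III, 19 in complex IV and 16 in ATP synthase. The complex IV genes include Ndufa4, which is now counted with that complex, its paralogue Ndufa4l2, and Cox6c-ps1, a transcribed pseudogene. The ATP synthase genes include Atp5if1, an inhibitor of the enzyme. A further 7 probe sets that list a symbol of this kind beside another symbol did not meet the rule.

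The respiratory chain passes electrons from NADH, through complex I, and from succinate, through complex II, to coenzyme Q, then by complex III and cytochrome c to complex IV, where oxygen is reduced. Complexes I, III and IV pump protons across the inner mitochondrial membrane, and ATP synthase makes ATP as the protons return. Complex II is built from nuclear genes alone, whereas the others also hold subunits encoded in mitochondrial DNA, so that their supply depends on both genomes. The proximal tubule, the main cell type of renal cortex, meets the cost of sodium reabsorption largely by this route.

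Expression was measured on GeneChip rat arrays in 4 groups of 3 arrays, 12 in all. TCE rats received 16 mg/kg per day by mouth for 3 days in corn oil, at 5 ml/kg, and control rats received the corn oil alone. All were male, 7 to 9 weeks old and Wistar-derived, although the labels also name the strain F-344, and none carried a genetic change that the labels mention. Liver and renal cortex came from the same 6 rats, 3 per treatment, and were taken the day after the last dose. Values are log2 expression values, on which 1 unit is a doubling. They are not comparable between probe sets, so levels are compared between samples only. The lowest value any probe set takes is 2.17. Within a group, pairs of arrays had correlations of 0.9928 to 0.997 over all probe sets.

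Both tissues carried their defining markers. The mean level of the hepatocyte list (9 of 10 genes on the array) was 14.78 to 14.91 in the liver arrays and 3.94 to 6.79 in the kidney arrays. The proximal tubule list (10 genes) ran from 12.96 to 13.51 in kidney and from 4.99 to 5.29 in liver. All 6 striated muscle markers present on the array stood at the lowest value in every group. Albumin mRNA (Alb) in the kidney arrays ranged from 4.36 to 12.8, so that hepatocyte transcripts differed between arrays of the same kidney group. In tissue RNA, fewer cells of a type and less RNA per cell cannot be told apart.

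The promoters of these genes are known for binding sites of nuclear respiratory factor 1 (NRF1), of ETS-family factors such as GABP (also called NRF2) and of YY1. RefSeq promoter windows of assembly GRCr8, from 250 bases before to 50 bases after the start, were at hand for 78 of the 87 members and were searched on both strands. The NRF1 motif (GCGCA, any base, then GCGC) was in 19.2% of the members' windows and in 6.09% of those of all 19005 protein-coding genes. The ETS motif, CCGGAAG, was in 28.2% against 11.2%, and the YY1 motif, AAGATGGC, in 21.8% against 3.92%. The SP1 motif, GGGGCGG, was in 17.9% against 27.9%, and the motif of the estrogen-related receptors, TCAAGGTCA, in 2.56% against 0.353%. Copies may overlap one another, and a match shows only that the letters are there.

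By complex the counts of windows were small, and no difference between complexes was tested. NRF1 copies were in 5 of 15 ATP synthase windows, in 6 of 32 complex I windows and in 0 of 15 complex IV windows. ETS copies were in 3 of 6 complex III, 2 of 4 complex II, 5 of 15 ATP synthase, 7 of 32 complex I and 3 of 15 complex IV windows. The 150 bases before the start are shown for 6 members that the results below turn on or that illustrate a pair of isoforms, with capitals for whole copies of the NRF1, ETS or YY1 motif on either strand. They lie at chr1:253362937-253363086 (minus strand) for Ndufb8, chr1:184599090-184599239 (plus) for Uqcrc2, chr1:30764403-30764552 (plus) for Sdha, chr11:44657484-44657633 (minus) for Atp5po, chr1:213833624-213833773 (minus) for Cox8a and chr1:205408274-205408423 (minus) for Cox8b.
Ndufb8: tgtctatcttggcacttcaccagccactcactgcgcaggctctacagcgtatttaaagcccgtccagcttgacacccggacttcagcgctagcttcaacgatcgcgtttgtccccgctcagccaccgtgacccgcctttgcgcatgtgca
Uqcrc2: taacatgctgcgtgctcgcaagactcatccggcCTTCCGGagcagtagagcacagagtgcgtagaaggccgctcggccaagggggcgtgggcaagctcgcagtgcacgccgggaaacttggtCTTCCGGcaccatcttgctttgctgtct
Sdha: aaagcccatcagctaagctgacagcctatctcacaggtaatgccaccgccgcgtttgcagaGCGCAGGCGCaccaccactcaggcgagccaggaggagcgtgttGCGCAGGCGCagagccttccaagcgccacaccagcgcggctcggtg
Atp5po: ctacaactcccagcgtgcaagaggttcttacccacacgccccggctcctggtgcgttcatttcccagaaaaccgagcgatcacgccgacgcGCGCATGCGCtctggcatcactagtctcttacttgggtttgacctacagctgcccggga
Cox8a: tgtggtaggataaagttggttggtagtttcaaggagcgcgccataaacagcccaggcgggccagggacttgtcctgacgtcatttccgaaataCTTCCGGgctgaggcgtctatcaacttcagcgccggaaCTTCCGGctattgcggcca
Cox8b: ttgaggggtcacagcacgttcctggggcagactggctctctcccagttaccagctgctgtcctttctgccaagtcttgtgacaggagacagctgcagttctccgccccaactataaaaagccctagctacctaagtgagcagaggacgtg

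Uqcrc2 held ETS copies at -117 and -28 (the position of the first base of the copy, counted from the start at 0), both on the minus strand of the gene. Sdha held NRF1 copies at -89 and -46, and a further one that spans the start. In Ndufb8 no copy of these 3 motifs lies in the bases shown, and its YY1 copy is at 21, after the start. Cox8a, the form of subunit 8 found in most tissues, held ETS copies at -57 and -19 and a YY1 copy that spans the start. Cox8b, the heart and skeletal muscle form, held none of the 3, and only an SP1 copy at -49.

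In liver, members were mostly lower in TCE rats, by small amounts that did not pass the threshold gene by gene. Of the 81 members tested, 58 (71.6%) were lower and 23 higher, with a median difference of -0.08, whereas 43.5% of the 10552 genes tested were lower and their median was 0.03. No gene passed an adjusted p of 0.05 in limma (percent called 0), and 14.7% of genes, 1546 in number, had an unadjusted p under 0.05. Of the members, 11 had such an unadjusted p, and all 11 were lower, where 5.84% of genes were lower and 8.81% higher at that level. In 24 members the 3 TCE and 3 control values did not overlap: 23 were lower and 1, Ndufb1, was higher. Over all genes tested, 20.5% did not overlap, 8.31% lower and 12.2% higher. The lower median depended on the scaling. After quantile normalization it was -0.00882, with 39 members higher and 42 lower, and the ATP synthase and complex I medians were then 0.03 and 0.01.

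**Figure D1:**
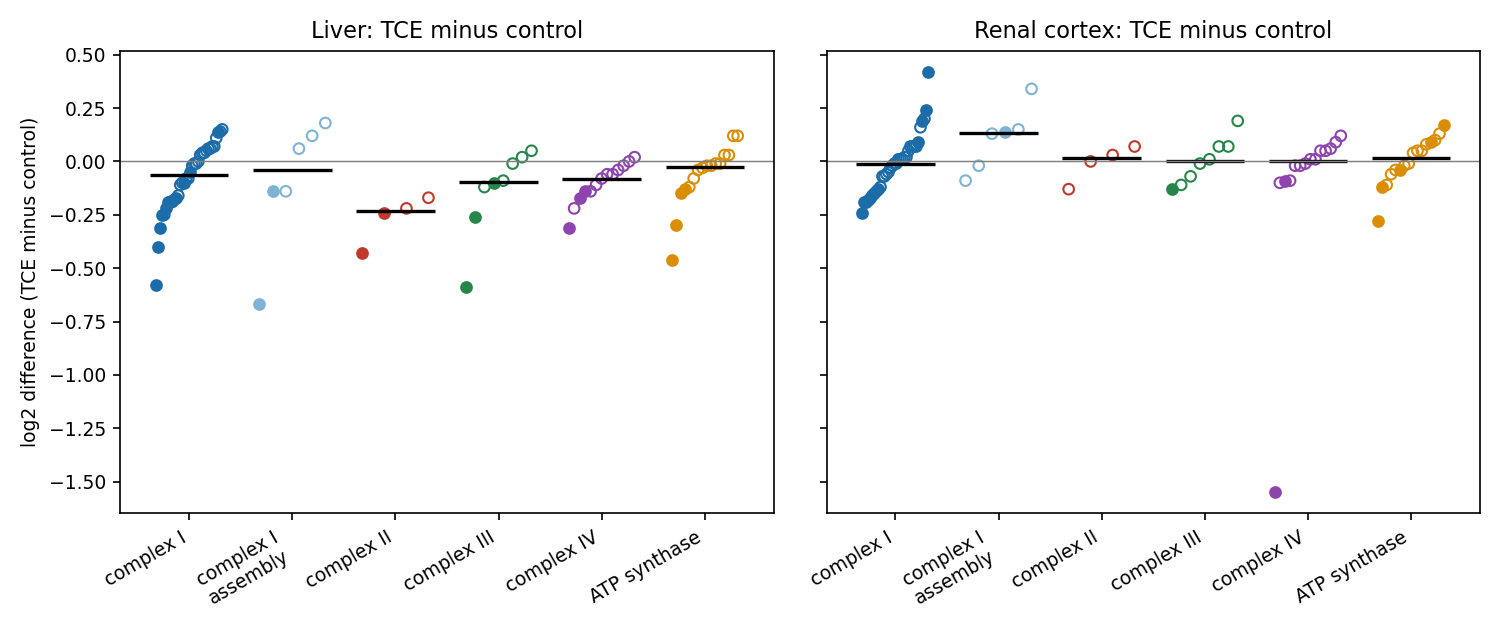
Log2 difference, TCE minus control, of each member tested (points) in liver (left) and renal cortex (right), by complex, with the median of the complex as a black bar; filled points are members whose 3 TCE and 3 control values do not overlap. In liver the medians run from -0.23 in complex II to -0.02 in ATP synthase, while in renal cortex those of the 5 complexes lie near 0 and Cox8b stands apart at -1.55.

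A measure of RNA quality moved with the treatment. The gap between the 3' and 5' control probe sets of Gapdh, which widens when labelled RNA is short or degraded, was 1.49 ± 0.25 log2 units (SD, n = 3) in TCE livers and 0.81 ± 0.04 in control livers. In kidney it was 0.66 ± 0.19 with TCE and 0.97 ± 0.11 without. Exact two-sided permutation tests gave p = 0.1 in liver and p = 0.2 in kidney, where 0.1 is the smallest value that 3 against 3 allows. The Actb gap differed by 0.69 in liver and -0.17 in kidney, with exact permutation p = 0.3 and p = 0.1. Once the Gapdh gap entered as a covariate, the members' liver median was -0.00883, with 40 higher and 41 lower. Cell type marker lists also stood apart between TCE and control livers. The mean of the erythroid list (4 of 6 genes on the array, Klf1 at the lowest value) was 6.48 to 6.99 in TCE and 7.27 to 7.71 in control livers. That of the stellate, fibroblast and mesangial list (9 genes) was 7.21 to 7.41 against 6.93 to 7.02. The neutrophil list (3 of 5 genes on the array) read 4.82 to 5.51 against 4.31 to 4.4. Of its genes, Cxcr2 stood at the lowest value in every TCE liver but not in every control liver. The lymphocyte list (6 of 7, with Cd79b and Ms4a1 at the lowest value) read 3.94 to 4.27 against 3.83 to 3.93. The podocyte list (6 of 7), for a kidney cell type, also stood apart in liver, at 3.68 to 3.76 against 3.5 to 3.64. The Gapdh gap did not overlap between the liver groups (1.21 to 1.7 with TCE, 0.78 to 0.86 without). The covariate therefore cannot cleanly separate RNA quality from treatment in liver. The part of these measures in the members' differences was not otherwise tested.

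Complex I, the entry point for NADH, had 22 of 34 subunits lower in TCE livers, with a median of -0.06. Ndufb8, an accessory subunit of its membrane arm, read 10.1, 10.08 and 9.76 in control livers and 9.37, 9.39 and 9.43 in TCE livers. The groups did not overlap, and the difference was -0.58 ± 0.11 (SE; limma adjusted p = 0.157). Ndufb6, from the same arm, read 12.57, 12.47 and 12.4 without TCE and 11.98, 12.29 and 12.23 with it, a difference of -0.31 ± 0.11. Its neighbour Ndufb9 differed by -0.22 ± 0.08, from 13.54 to 13.73 without TCE to between 13.36 and 13.46 with it. Of the 10 complex I subunits whose groups did not overlap, Ndufb1 alone was higher, at 12.63, 12.58 and 12.47 in control and 12.68, 12.75 and 12.67 in TCE livers. All 3 TCE values of Ndufb1 lay above the controls, by 0.14 ± 0.07.

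The 6 Ndufaf genes, whose products help to build complex I and are not part of it, showed no shared direction in liver, with 3 lower, 3 higher and a median of -0.04. Ndufaf1, which assembles the membrane arm, had the most negative difference of all members. It read 7.25, 6.95 and 6.84 in control and 6.12, 6.15 and 6.76 in TCE livers, a difference of -0.67 ± 0.21 with limma adjusted p = 0.276. The third TCE liver lay just below the lowest control. With the Gapdh covariate the sign turned, to 0.31. Ndufaf7, a methyltransferase, differed by -0.14 ± 0.06 without overlap.

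In complex II, the succinate dehydrogenase that also belongs to the tricarboxylic acid cycle, all 4 subunits were lower in TCE livers, and their median of -0.23 was the most negative of the complexes. Sdhc, a membrane anchor, read 12.5, 12.34 and 12.33 in control and 11.89, 12.03 and 11.95 in TCE livers. Each TCE liver lay below every control, by -0.43 ± 0.08 on average (limma adjusted p = 0.156). The other anchor, Sdhd, read 12.53, 12.37 and 12.22 against 12.08, 12.13 and 12.2, a difference of -0.24 ± 0.10, also without overlap. The catalytic flavoprotein Sdha (12.87, 12.86 and 12.68 against 12.48, 12.68 and 12.59) differed by -0.22 ± 0.09 with a shared value of 12.68. The iron-sulfur subunit Sdhb (13.27, 13.13 and 12.96 against 12.78, 12.99 and 13.09) overlapped, with a difference of -0.17. All 4 stayed lower after quantile normalization, with a median of -0.16, but with the Gapdh covariate Sdhb was at 0.27.

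Complex III had 6 of 8 members lower, with a median of -0.10. Uqcrc2, a core protein of the complex, had the smallest p of all members in liver. It read 11.93, 11.9 and 11.92 in control and 11.28, 11.34 and 11.36 in TCE livers. The groups were tight and well apart, at a 1.51-fold lower level with TCE (-0.59 ± 0.06, limma adjusted p = 0.106). A further Uqcrc2 probe set, with a dimmer signal, also did not overlap, with means of 7.81 in control and 6.26 in TCE livers. Uqcrfs1, the Rieske iron-sulfur protein, read 12.61, 12.56 and 12.42 against 12.14, 12.29 and 12.38, and Uqcr11, a small accessory subunit, differed by -0.10 with 13.0 to 13.04 in control and 12.87 to 12.95 in TCE livers.

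In complex IV, cytochrome c oxidase, 11 of the 13 members tested were lower, with a median of -0.08. Cox6a1, the form of subunit 6A found outside heart and skeletal muscle, read 13.35, 13.22 and 13.32 in control and 12.94, 13.01 and 13.01 in TCE livers. This difference of -0.31 ± 0.07 (limma adjusted p = 0.184) was the only one in the complex with an unadjusted p under 0.05. Cox6b1 (-0.14) and Cox6c (-0.17) also had TCE values below all controls. The 6 members not tested in liver, Cox4i2, Cox6a2, Cox6b2, Cox7b2, Cox8b and Ndufa4l2, had means below the filter and most are forms known from lung, testis or muscle.

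ATP synthase had 12 of 16 members lower, but its median was only -0.02. Atp5pb, subunit b of the peripheral stalk, read 13.61, 13.48 and 13.49 in control and 12.95, 13.08 and 13.17 in TCE livers. It was 1.38-fold lower with TCE, without overlap (-0.46 ± 0.09, limma adjusted p = 0.157). Atp5mg, subunit g of the membrane part, read 13.62, 13.51 and 13.25 against 13.04, 13.21 and 13.24, so that its highest TCE value lay just under the lowest control. Atp5mc3, which encodes the c-ring subunit, differed by -0.15 ± 0.07, and the alpha subunit Atp5f1a also did not overlap.

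**Figure D2:**
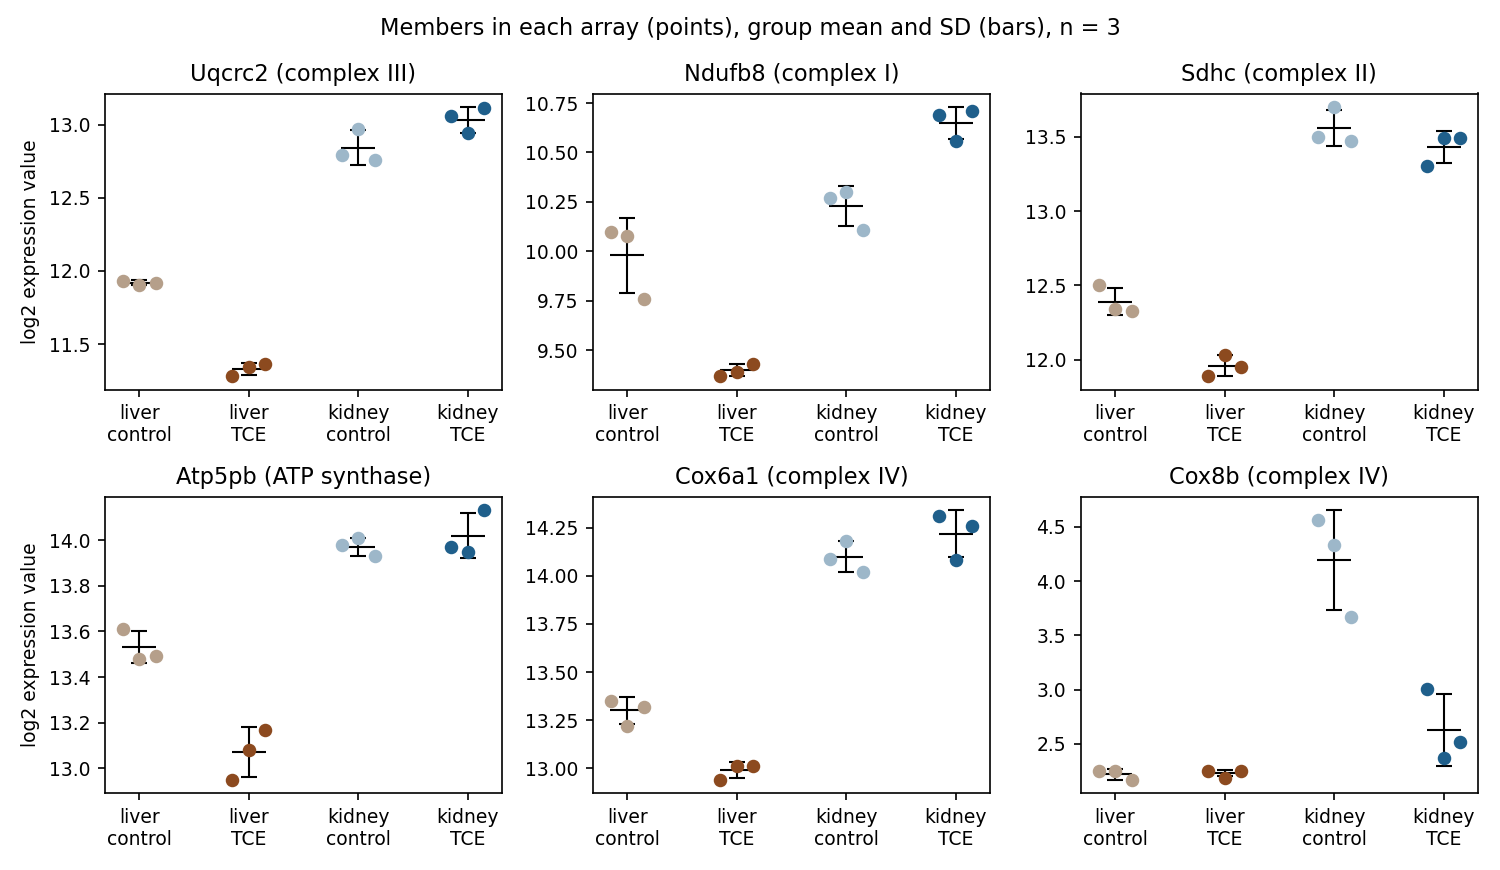
Log2 expression value in each array (points) with the group mean and SD (bars, n = 3) of the leading members in liver (Uqcrc2, Ndufb8, Sdhc, Atp5pb, Cox6a1) and in renal cortex (Cox8b); axes do not start at 0 and differ between panels. TCE livers lie below control livers in the first 5 panels, Ndufb8 is higher in TCE kidneys (10.56 to 10.71) than in control kidneys (10.11 to 10.3), and Cox8b reads 3.67 to 4.56 in control kidneys and 2.37 to 3.01 in TCE kidneys.

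In renal cortex the members showed no common direction with TCE. Of the 82 tested, 42 were higher and 40 lower, with a median of 0.005, beside a median of 0 over the 10563 genes tested. Leaving out single arrays moved the members' median from -0.03, without the third control kidney, to 0.03, without the first. No gene passed an adjusted p of 0.05 in limma (percent called 0), and 14.8% of genes, 1566 in number, had an unadjusted p under 0.05, split into 7.56% higher and 7.26% lower. So did 9 members, 2 higher and 7 lower. In 21 members the groups did not overlap, 7 higher and 14 lower, which is 25.6% of members beside 20.1% of all genes (10.3% higher and 9.81% lower). The podocyte markers (6 of 7 on the array) had a mean of 7.87 to 8.03 in TCE and 7.34 to 7.48 in control kidneys, and their part in the members' values was not tested. The stellate, fibroblast and mesangial list (9 genes) was slightly lower, at 5.05 to 5.08 in TCE and 5.1 to 5.16 in control kidneys. In liver that list was higher with TCE, and its part was likewise not tested. The proximal tubule list read 13.32 to 13.38 in TCE kidneys, within the range of the controls.

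The kidney differences in complex I ran both ways, with 16 higher and 18 lower. Ndufb8 was the leading higher member, at 10.27, 10.3 and 10.11 in control and 10.69, 10.56 and 10.71 in TCE kidneys. Its groups did not overlap, and the difference of 0.42 ± 0.08 had a limma adjusted p of 0.21. Ndufa8, an accessory subunit of the intermembrane space side, read 12.13, 12.05 and 11.9 in control and 12.29, 12.21 and 12.32 in TCE kidneys (0.24 ± 0.08). Ndufa13, also called GRIM-19, was lower in every TCE kidney, at 11.81, 11.78 and 11.89 against 12.02, 12.03 and 11.99 (-0.18 ± 0.06). Ndufb7 was likewise lower, at 12.49, 12.6 and 12.39 against 12.79, 12.67 and 12.73 (-0.24 ± 0.08). Among the assembly factors Ndufaf3 was apart, at 0.14 ± 0.06, and the median of the 6 was 0.14.

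Kidney members whose groups did not overlap made up 35.3% of complex I and 31.2% of ATP synthase. No complex II member did so, with differences from -0.13 to 0.07, and in complex III it was Uqcrq alone, a small subunit near the ubiquinone-binding site, at -0.13 ± 0.06. In ATP synthase, Atp5me, subunit e of the membrane part, read 12.46, 12.53 and 12.39 in control and 12.19, 12.25 and 12.11 in TCE kidneys. It did not overlap, at -0.28 ± 0.07 (limma adjusted p = 0.254). The inhibitor Atp5if1 was higher by 0.17 ± 0.07, at 12.54, 12.49 and 12.52 against 12.32, 12.46 and 12.27, and Atp5f1e, the small epsilon subunit of the catalytic part, differed by -0.12. Atp5f1c, the gamma subunit of the rotor, was also higher without overlap (0.09) and Atp5mc3 lower (-0.04).

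Cox8b had the most negative kidney difference. It read 4.56, 4.33 and 3.67 in control kidneys and 3.01, 2.37 and 2.52 in TCE kidneys, a difference of -1.55 ± 0.28 with limma adjusted p = 0.205. The liver arrays, at 2.17 to 2.25, were at or near the lowest value, and the TCE kidneys came close to it. These are dim signals on which a log2 difference carries a large error. With all 12 arrays in one fit, which shares the estimate of spread, the limma adjusted p was 0.0422. The liver arrays added there lie near the lowest value, with SDs of 0.05 (control) and 0.03 (TCE). In kidney the SDs were 0.46 (control) and 0.33 (TCE), so the shared spread is too narrow for kidney and that p is not read. Cox8b is also known from brown fat, and the adipocyte list (6 genes, with Ucp1 and Lep at the lowest value) had a mean of 2.88 to 3.12 in control and 2.84 to 2.96 in TCE kidneys. Its widely expressed counterpart, Cox8a, read 14.77, 14.76 and 14.73 in control and 14.67, 14.72 and 14.59 in TCE kidneys, a difference of -0.09 ± 0.06.

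The TCE differences of the members more often had opposite signs in the 2 tissues than the same sign. Of the 81 members measured in both, 37 were lower in liver and higher in kidney, 18 were higher in liver and lower in kidney, 21 were lower in both and 5 higher in both. Signs were thus opposite in 67.9% of members and in 53.3% of all genes. Across members, Pearson's r between the liver and kidney differences was -0.61 (Spearman's rho -0.52, n = 81 genes). Across all 10180 genes measured in both tissues r was -0.02, and it was -0.04 over the 2213 genes with a mean above 10, a level that 73 members also exceed, with r of -0.57. Members share the arrays and are not independent of one another, and the tissues come from the same rats, so these are descriptions. Leaving out any one array gave r from -0.64 to -0.5. When both fits took the Gapdh gap into account r was -0.15, and the gap itself differed in opposite directions in liver and kidney. In liver the gap did not overlap between the groups, so that fit cannot cleanly separate it from TCE.

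**Figure D3:**
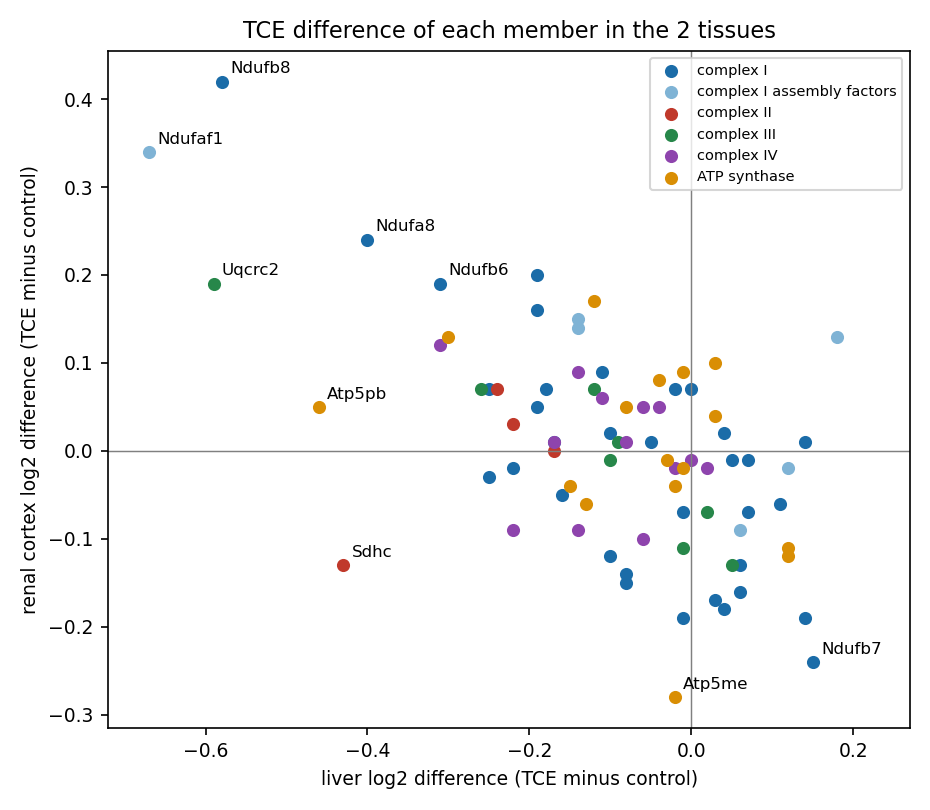
Log2 difference, TCE minus control, in liver (x axis) against renal cortex (y axis) for the 81 members measured in both tissues, coloured by complex. Ndufb8, Ndufaf1, Uqcrc2, Ndufa8 and Ndufb6 lie at the upper left, lower in liver and higher in kidney, and Sdhc is among those lower in both (r = -0.61).

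The difference between the liver and kidney effects was tested directly over the 12 arrays. Of 10652 genes, 57 passed an adjusted p of 0.05 in limma, a percent called of 0.535, with 20 in the positive direction (0.188%) and 37 in the negative (0.347%). Among the members 2 passed, both more negative in liver. Ndufb8 differed by -1.0 ± 0.14 and Uqcrc2 by -0.79 ± 0.11, each with limma adjusted p = 0.0203. Uqcrc2 read 12.79, 12.97 and 12.76 in control and 13.06, 12.94 and 13.11 in TCE kidneys, which overlapped (0.19 ± 0.09, beside -0.59 in liver), whereas Ndufb8 stood apart in both tissues. Atp5pb came closest among the others that were measured in both tissues (-0.51, limma adjusted p = 0.0948). Cox8b, near the lowest value in liver with and without TCE, cannot show a liver effect, and its difference of effects is not read. Complex II was the complex in which all 4 members were more negative in liver, by -0.17 to -0.31.

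Both calls depended on single arrays and on the model. The count of 57 genes ranged from 0, without the first TCE kidney, to 108, without the second, and of the 12 arrays only leaving out the second control kidney kept it near 57. Without the first TCE kidney the limma adjusted p was 0.0595 for each. Without the first control kidney it was 0.0607 for Ndufb8 and 0.073 for Uqcrc2, and without the third control kidney 0.0529 and 0.0541. With the replicate number as a block it was 0.0598 for Ndufb8 and 0.0675 for Uqcrc2, and 9 genes passed, none of them a member. That block joins all arrays with the same number, from TCE and control rats alike, so it is not a block by rat. Liver and kidney came from the same rats, but the labels do not say whether the numbers mark the rat. No fit of the difference of effects paired the tissues of a rat. The sizes moved little, from -1.02 to -0.94 for Ndufb8 and from -0.77 to -0.74 for Uqcrc2 in the 3 fits that left out an array. Once the Gapdh gap entered the model as a covariate, the differences were -0.66 for Ndufb8 and -0.45 for Uqcrc2, with limma adjusted p of 0.914 and 0.938. Because the gap did not overlap between the liver groups, this model cannot cleanly separate it from TCE in liver.

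The tissue of origin separated the members far more than TCE did. In control rats 66 of 81 members passed an adjusted p of 0.05 in limma, 61 higher in kidney and 5 higher in liver, where 68.6% of all 10654 genes tested passed, 38.9% higher and 29.7% lower in kidney. The median kidney minus liver difference was 0.55 over the members and 0.10 over all genes. The size of this shift, and the direction of some members, rests on how the arrays are scaled, because kidney arrays have higher medians (3.91 to 3.94) than liver arrays (3.5 to 3.53). With every array centred on its median, 29 members were called higher and 16 lower, with a members' median of 0.15 beside -0.31 over all genes. The share of all calls that were higher in kidney moved from 56.7% to 35.2%. After quantile normalization 67 members were higher and 4 lower, with a median of 0.74. Relative to the median of all genes, members lay 0.46, 0.46 and 0.77 above it as deposited, after centring and after quantile normalization.

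ATP synthase and complex III showed the largest kidney excess. In ATP synthase 15 of 16 members passed as higher in kidney, with a median of 0.82, and 11 did so after centring on the median. Atp5if1, which curbs ATP hydrolysis when the proton gradient fails, had the largest kidney excess of any member. It read 9.51, 9.74 and 9.8 in control livers and 12.32, 12.46 and 12.27 in control kidneys, a 6.33-fold difference (2.66 ± 0.11, limma adjusted p = 5.37e-06). The 2 other Atp5if1 probe sets were dim and did not show it, at means of 2.17 to 2.97. Atp5po, the oligomycin sensitivity-conferring subunit, was 1.07 ± 0.09 higher, from 13.32 to 13.52 in liver to 14.4 to 14.55 in kidney.

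Complex III had 7 of 8 members higher in kidney and a median of 0.86. Uqcr11 read 13.03, 13.04 and 13.0 in control livers and 14.07, 14.05 and 14.04 in control kidneys, 1.03 ± 0.06 higher (limma adjusted p = 2.93e-05). The core proteins Uqcrc1 (0.94) and Uqcrc2 (0.92) and the haem subunit Cyc1 (0.92) passed as well. Uqcrq went the other way, at 14.1 to 14.19 in liver and 13.77 to 13.89 in kidney (-0.32 ± 0.07, limma adjusted p = 0.00913), although after quantile normalization it was -0.15 and did not pass. All 4 complex II subunits passed as higher in kidney, with Sdhc at 1.17 ± 0.10 and the other 3 between 0.46 and 0.63. After centring on the median only Sdhc of complex II passed.

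Complex I was more mixed, with 23 subunits higher in kidney, 3 lower and 8 that did not pass. The largest kidney excess was in Ndufs1, the large iron-sulfur subunit, at 12, 11.84 and 11.91 in control livers and 12.97, 12.96 and 12.89 in control kidneys (1.02 ± 0.07). Ndufv1, the NADH-binding subunit, was 0.93 ± 0.08 higher and Ndufa12, an accessory subunit, 0.88 ± 0.08. The 3 that were lower in kidney, Ndufa8 (-0.28), Ndufa6 (-0.24) and Ndufa11 (-0.20), did not pass after quantile normalization, and each lost its call when certain arrays were left out. After centring on the median complex I was split, with 6 members called higher and 9 lower. Ndufaf1 was lower in kidney, at 5.88, 5.72 and 5.38 against 7.25, 6.95 and 6.84 in control livers (-1.35 ± 0.17, limma adjusted p = 0.000744), while 3 assembly factors (Ndufaf4, Ndufaf5 and Ndufaf8) passed as higher. After centring on the median 0 assembly factors were called higher and 3 lower. Ndufaf4 also lost its call without the second or the third control kidney, with limma adjusted p of 0.0595 and 0.0852. Ndufaf8 lost it without the first control kidney or the second or the third control liver, with limma adjusted p of 0.0626, 0.06 and 0.0579.

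In complex IV 9 of 13 members passed as higher in kidney and 0 as lower, with a median of 0.56. After centring on the median 5 passed as higher and 3 as lower, with a median of 0.15, and after quantile normalization 10 and 2. Cox8a (1.15 ± 0.10) and Cox6b1 (0.84 ± 0.08) were among the 9. So was Cox8b, but it passed the filter through kidney alone (mean 4.19, beside 2.22 in liver, near the lowest value), so no size or rank is given for it. Paralogous forms are given each on its own scale. Cox4i1 read 13.47 to 13.58 in control livers and 13.92 to 14.17 in control kidneys, and Cox4i2, its hypoxia-linked lung form, stood at 2.17 on all 12 arrays, as did the muscle form Cox6a2. Ndufa4l2, Cox6b2 and Cox7b2 were between 2.17 and 2.24 throughout, and Cox7a1, the heart and muscle form of subunit 7A, between 2.44 and 2.9. Cox7a2l, which takes part in joining complexes III and IV, did not differ past the threshold between the tissues (0.06 ± 0.09) as deposited but was lower in kidney, at -0.34 (limma adjusted p = 0.0219), after centring on the median. Cox7b (0.38) turned to -0.02 there.

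The arrays of the TCE rats, which share none with the control comparison, gave a like picture of the tissues. Among 10642 genes 67.6% passed in limma (36.8% higher and 30.8% lower in kidney), as did 64 of 81 members, 61 higher and 3 lower, with a median of 0.65. Across the 80 members tested in both comparisons, the tissue differences correlated at r = 0.86 (rho 0.82) over genes, where 56 were called higher in kidney in both and 1, Uqcrq, lower in both. The difference for Uqcrc2 was 1.71 ± 0.08 in TCE rats and 0.92 ± 0.08 in controls, and for Ndufb8 1.25 ± 0.07 and 0.25 ± 0.12, which restates the difference of effects tested above. After centring, 42 members were called higher and 12 lower.

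**Figure D4:**
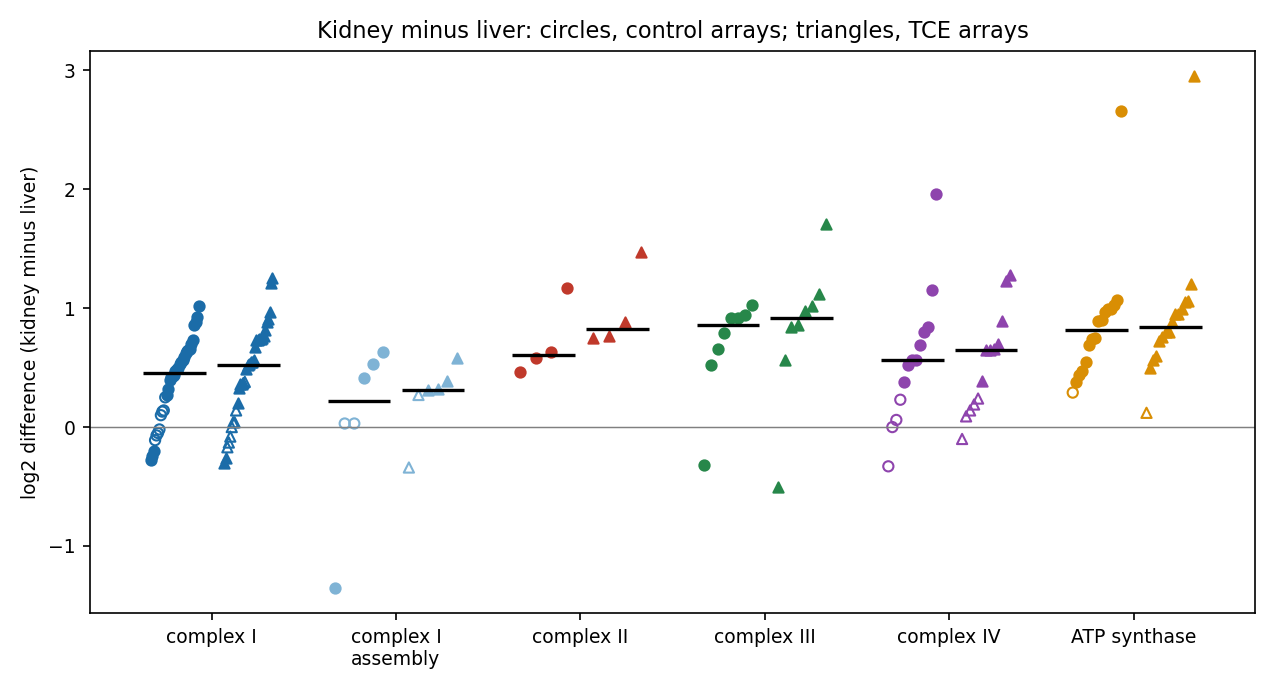
Log2 difference, kidney minus liver, of each member tested, by complex, for control arrays (circles, left) and TCE arrays (triangles, right), with medians as black bars; filled symbols pass limma adjusted p 0.05. Most members lie above 0, Atp5if1 highest at 2.66 and 2.95, and Uqcrq is the complex III member below 0. Cox8b is plotted, but its liver signal was near the lowest value, so its place is not read. The position of the 0 line depends on the scaling.

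Genes that work beside the chain were read from lists chosen by function. No gene on them passed limma's threshold for TCE in either tissue, where the percent called was 0. Of 15 tricarboxylic acid cycle genes tested, 11 were lower in TCE livers, with a median of -0.12. Dld, the dihydrolipoamide dehydrogenase of the cycle, differed by -0.49 ± 0.09 in liver and 0.34 ± 0.09 in kidney, without overlap in either tissue. In the direct test of the difference of effects 1 of the 15 cycle genes passed, more negative in liver (limma adjusted p = 0.0342), where 0.535% of all genes passed. With the Gapdh covariate 0 genes passed that test. Over these 15 genes r between the tissue effects was -0.67, and over 40 assembly factors outside the rule it was -0.52. Of those factors 22 were lower and 17 higher in TCE livers, and 25 higher and 15 lower in TCE kidneys, with Cox11, which delivers copper to complex IV, at 0.62 ± 0.08 in kidney.

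Regulators of mitochondrial biogenesis were read in the same way. Of 19 genes 13 (68.4%) were higher in TCE livers, beside 56.3% of all genes, and 11 (57.9%) in TCE kidneys, beside 49.7%. Their medians were 0.08 and 0.01, beside 0.03 and 0 over all genes, and r over them was 0.27. Pprc1, a coactivator related to PGC-1alpha, was higher without overlap in liver (0.86 ± 0.34) and in kidney (0.60 ± 0.09; limma adjusted p = 0.336 and 0.188). Gabpa, the DNA-binding subunit of GABP, differed by 0.39 ± 0.10 in kidney, and Yy1 by 0.30 ± 0.11 in liver. Ppargc1b, which encodes the coactivator PGC-1beta, was lower without overlap in kidney (-0.40 ± 0.15). In each tissue 3 regulators were higher and 2 lower without overlap (26.3%), beside 20.5% of all genes in liver and 20.1% in kidney. The liver differences ran from -1.88 to 0.86, and the gene at -1.88 was not among the 3 with the smallest p. Between the tissues of control rats 13 of 15 cycle genes passed as higher in kidney, with a median of 0.76. Of 8 genes that feed electrons into the chain by other routes 5 passed as lower and 0 as higher. Over all genes tested 38.9% passed as higher and 29.7% as lower. These counts hold for the values as deposited, and scaling moved the members' counts in the same comparison.

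Probe sets outside the rule's choice gave a second reading for some members. They gave the only reading for Atp5mc1, Atp5mc2, Uqcrb, Cox7a2, Ndufs5 and Ndufa10, which are not members. The further Sdhd probe set differed by -0.58 in liver and 0.14 in kidney, without overlap in either, and the further Uqcrc2 probe set by -1.55 in liver, without overlap, and 0.49 in kidney, with overlap. The probe sets shared by Cox5a or Atp5mc1 with another symbol were lower in TCE livers without overlap, at -0.39 and -0.40. The probe set chosen for Cox5a, a complex IV member, did not show this, at -0.04 with overlap. Between control tissues the shared Cox5a probe set was 0.64 higher in kidney, while the chosen one had a mean of 6.95 in both. The further Ndufv3 probe set was higher in TCE livers, at 0.26. Those of Uqcrb, Cox7a2, Ndufs5 and Ndufa10, each shared with another symbol, differed by -0.04 to 0.03 in liver and overlapped.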

How the data were processed

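The authors deposited a table of log2 expression values for 31099 probe sets on 12 arrays. The packages affy and limma were used, per the submitters' processing notes. How background and arrays were normalized is not given in the sources used here, and the log2 scale was inferred from the values' span. GEO's platform annotation supplied gene names, with a single symbol for 20826 probe sets, and 57 control probe sets were left out. A gene was tested where its probe set's mean lay above the 40th percentile of probe sets (2.447 in liver, 2.43 in kidney, 2.549 over control arrays). Such a filter leaves dim isoforms untested. Differences were tested with limma 3.58.1 under R 4.3.3 (eBayes defaults, two-sided, Benjamini-Hochberg over all genes of a fit, threshold 0.05) without covariates or further normalization, and were tested on simulated data first. SE is limma's moderated error.

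Members and lists were chosen with earlier results of these data known. Named in each tissue were up to 3 members per complex with the smallest p and no overlap, all of complex II, the largest tissue differences, isoform pairs, the leading differences of effects and up to 3 genes per related list. A few further members are named from counts after their values were seen. Both tissues came from the same rats, and the labels do not say whether equal numbers mark the rat. Same-numbered liver and kidney arrays had correlations of deviations of 0.05 to 0.08 in control and -0.01 to 0.06 in TCE rats. Pairing by number is unresolved, and the fits treat arrays as independent. Alternatives were other filters, scalings, probe set rules, variance models, array weights, a replicate block, all 12 arrays, other thresholds and each array left out. The number of arrays limits the precision.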

Additional observations from a re-analysis of the deposited data

Results flagged for a closer look

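Ndufb8 and Uqcrc2 were singled out because the liver and kidney effects of TCE differed in a direct test, by -1.0 and -0.79 log2 units (limma adjusted p = 0.0203 for each). Neither call held with the replicate number as a block (limma adjusted p = 0.0598 and 0.0675), a block that joins different rats. Neither held with the Gapdh gap as a further term (limma adjusted p = 0.914 and 0.938), a gap that did not overlap between the liver groups. Leaving out the first TCE kidney, the first control kidney or the third control kidney also ended both calls. Ndufa8 and Ndufb6 were singled out because every TCE value was below the controls in liver and above them in kidney. Their differences of effects were -0.64 and -0.5 and did not pass that test (limma adjusted p = 0.144 and 0.127). Outside the members' chosen probe sets, 3 readings had all TCE values above the controls. These were the further Ndufv3 probe set in liver (0.26), the probe set shared by Atp5mc2 and Atp5mc2l1 in kidney (0.2) and the further Sdhd probe set in kidney (0.14).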

How the results depend on the processing

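Of the comparisons' main values, 240 alternative values stayed within their limits and 51 moved, and for single genes 1024 kept direction and side of the threshold, 48 lost a call, 9 gained one and 12 changed sign. In liver, 17 genes and 1 member (Uqcrc2) passed without the filter on dim probe sets, and 138 genes and 3 members (Uqcrc2, Ndufb8, Atp5pb) with all 12 arrays in the fit. Leaving out single arrays gave 0 to 1 genes in liver. The members' liver median was -0.00882 after quantile normalization and -0.00883 with the Gapdh covariate, where Ndufaf1 (0.31), Uqcrfs1 (0.07), Atp5mg (0.01) and Sdhb (0.27) turned sign. In kidney, 2 genes passed without the filter, 1 with a stricter filter, and 1 with a variance trend and robust fitting. With all 12 arrays 10 genes and 1 member passed. That member was Cox8b, whose liver arrays near the lowest value narrow the shared spread, so the call is not read. In kidney Sdha was at 0 after quantile normalization, and Sdha, Sdhb and Sdhd at -0.03, -0.02 and -0.03 with the covariate. With single arrays left out Sdha ran from -0.04 to 0.07 and Sdhb from -0.05 to 0.04, both lowest without the third control.

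For the difference of effects, 198 probe sets passed when all were tested, 123 genes with array weights, 190 genes and 4 members at a threshold of 0.1 (Cox8b, near the lowest value in liver, among them), and 0 genes and 0 members with the Gapdh covariate, which was chosen after seeing the data. With the replicate number as a block 9 genes and 0 members passed (limma adjusted p = 0.0598 for Ndufb8 and 0.0675 for Uqcrc2). The block also ended the control tissue calls of Ndufa8, Ndufa6 and Ndufa11. Leaving out single arrays gave 0 to 108 genes and 0 to 3 members. The members' median was -0.0139 after quantile normalization and 0.0573 with the covariate.

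For control kidney against liver, 11514 probe sets passed when all were tested, and the members' median was 0.74 after quantile normalization and 0.146 after centring, where Cox7a2l (-0.34) and Cox7b (-0.02) turned sign. For the TCE arrays 11382 probe sets passed, and the median was 0.576 without the filter, 0.666 over all probe sets, 0.792 after quantile normalization, 0.266 after centring, 0.665 with array weights, 0.709 for subunits alone, and 0.603 to 0.694 with single arrays left out. Dim signals near the lowest value, as for Cox8b, and 3 arrays per group limit what can be told. The cause of these changes was not tested.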
